A study of Mus musculus with 6 samples.

Results

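The 9 genes described here encode receptors and transcription factors of interferon signalling. They are the receptor chains Ifnar1, Ifnar2, Ifngr1 and Ifngr2, the signal transducer Stat2 and the interferon regulatory factors Irf1, Irf2, Irf7 and Irf9. They were chosen by name, by matching the Ensembl gene IDs of the count table to these symbols, and all 9 were found among 28786 IDs. The choice was made with earlier results of these data known. RNA was measured in haematopoietic stem cells (HSCs), the rare marrow cells that renew themselves and give rise to all blood lineages. The cells were sorted by TMRM, a fluorescent dye that enters mitochondria according to their membrane potential. There were 3 TMRM-high and 3 TMRM-low libraries, and the question was how the RNA of cells with high and low dye signal differed. All 6 libraries came from marrow of C57BL/6 wild type mice, 6 to 8 weeks old, with 1500 cells in each. The surface gate in every library was Lin-, CD48-, c-Kit+, CD150+ and Sca-1+, and no treatment or transgene is named. Whether each library had mice of its own is not stated in the labels, so the p-values measure only how far these libraries spread, which may be technical.

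Interferons are secreted proteins that cells make on sensing viruses or inflammation. Type I interferons bind a receptor of IFNAR1 and IFNAR2, and interferon gamma binds a receptor of IFNGR1 and IFNGR2; kinases of the JAK family on these chains then phosphorylate STAT proteins. STAT2 and IRF9 are subunits of the complex ISGF3, which binds the interferon-stimulated response element (ISRE), while STAT dimers bind the gamma-activated site (GAS). IRF1 activates genes with such elements, IRF2 competes with it for the same sites, and IRF7 is both a product of the response and an amplifier of type I interferon production. In HSCs, interferon signals are known to drive quiescent cells into cycle.

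The promoters of the IRF and STAT genes are shown because these genes are themselves targets of the pathway. Promoter sequences of all 9 genes were available from RefSeq on GRCm38.p6, covering 250 bases before and 50 after a transcript start. The ISRE core was searched as GAAA, any 2 bases, GAAA, and the GAS core as TTCNNNGAA, on both strands; matches are in capitals and none overlapped another. Below are the windows of Irf7, Irf1 (the upstream of its 2 windows), Irf2 and Stat2.
Irf7, chr7:141266375-141266674 (- strand): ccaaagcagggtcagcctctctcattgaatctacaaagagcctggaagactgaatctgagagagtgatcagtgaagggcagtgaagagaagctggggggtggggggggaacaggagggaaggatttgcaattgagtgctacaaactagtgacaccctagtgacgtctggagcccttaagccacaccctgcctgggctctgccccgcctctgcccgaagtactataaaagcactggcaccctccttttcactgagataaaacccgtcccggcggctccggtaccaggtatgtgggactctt
Irf1, chr11:53769764-53770063 (+ strand): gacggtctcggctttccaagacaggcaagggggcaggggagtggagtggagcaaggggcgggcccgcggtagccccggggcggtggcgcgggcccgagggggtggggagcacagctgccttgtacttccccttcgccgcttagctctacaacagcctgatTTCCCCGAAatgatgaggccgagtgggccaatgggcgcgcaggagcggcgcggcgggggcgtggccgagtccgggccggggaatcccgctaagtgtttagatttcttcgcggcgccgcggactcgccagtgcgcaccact
Irf2, chr8:46739495-46739794 (+ strand): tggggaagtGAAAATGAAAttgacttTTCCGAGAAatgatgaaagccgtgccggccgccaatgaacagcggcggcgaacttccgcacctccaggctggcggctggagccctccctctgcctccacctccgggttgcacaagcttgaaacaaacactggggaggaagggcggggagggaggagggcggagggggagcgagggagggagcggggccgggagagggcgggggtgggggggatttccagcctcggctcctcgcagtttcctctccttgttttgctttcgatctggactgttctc
Stat2, chr10:128270248-128270547 (+ strand): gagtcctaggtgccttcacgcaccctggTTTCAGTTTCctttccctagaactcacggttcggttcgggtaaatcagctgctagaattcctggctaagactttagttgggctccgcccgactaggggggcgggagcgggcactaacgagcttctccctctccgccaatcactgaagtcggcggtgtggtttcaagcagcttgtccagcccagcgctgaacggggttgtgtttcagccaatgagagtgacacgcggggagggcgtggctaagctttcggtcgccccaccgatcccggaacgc
An ISRE core stood in the windows of 2 of the 9 genes, Irf2 (GAAAATGAAA, 241 bases before the start) and Stat2 (TTTCAGTTTC, the core on the opposite strand, 222 bases before the start). Of 16120 protein-coding genes with a window, 4.01% held this core. A GAS core stood in 4 of the 9, against 9.03% of protein-coding genes. These were Irf1 (TTCCCCGAA, 90 bases before the start), Irf2 (TTCCGAGAA), Ifnar2 (TTCCTGGAA) and Ifnar1 (TTCACGGAA). Neither set of letters was found in the windows of Irf7, Irf9, Ifngr1 or Ifngr2. Their absence says only that these letters are not in those windows. Irf9 had 2 windows, chr14:55603735-55604034 and chr14:55604329-55604628. Both lie inside the gene, which starts at 55603571, so the bases before that start were not searched. A match describes the sequence and does not show that a factor binds there.

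Totals of the estimated counts ran from 14270069 to 22070594 in TMRM-high libraries and from 15930495 to 18431567 in TMRM-low libraries. Pairs of TMRM-high libraries lay closer together (chi-square over its degrees of freedom 3.98 to 6.74, where 1 is counting noise) than pairs of TMRM-low libraries (46.0 to 51.4). The biological coefficient of variation was 7.26% among the TMRM-high libraries, against 42.0% among the TMRM-low ones. For the marker lists that follow, the shares over all 13662 genes tested were 5.12% called lower and 5.84% called higher in TMRM-high libraries. Of the 12 HSC markers 5 were called lower and none higher, and their summed level was 600.7 to 605.4 CPM (counts per 1000000) in TMRM-high libraries, against 942 to 1020 CPM in TMRM-low libraries. None of the 12 was at 0 in any library. Of the sort markers in that list, Ly6a, which encodes Sca-1, was at 28.2 to 32.6 CPM in TMRM-high libraries, against 163 to 177 CPM in TMRM-low libraries. Kit and Slamf1, which encodes CD150, did not pass the test. Granulocyte markers (8 of 9 called higher, none lower) summed to 13670 to 14060 CPM in TMRM-high libraries, against 3251 to 3480 CPM in TMRM-low libraries. B cell markers (7 of 7 higher) summed to 358.6 to 372.7 CPM in TMRM-high and to 40.1 to 44.8 CPM in TMRM-low libraries. Erythroid markers (6 of 8 higher) summed to 204 to 224 CPM in TMRM-high and to 41.9 to 67.3 CPM in TMRM-low libraries. Macrophage markers, with 2 of 7 tested called higher and 2 lower, summed to 123 to 142 CPM in TMRM-high and to 18.7 to 32.0 CPM in TMRM-low libraries. Vcam1 and Slc40a1 made up most of the TMRM-high sum, while C1qa and C1qb were the 2 called lower. NK cell markers (4 of 6 tested lower) summed to 9.39 to 12.9 CPM in TMRM-high and to 61.0 to 79.2 CPM in TMRM-low libraries. T cell markers (1 of 3 tested lower) summed to 71.2 to 77.3 CPM in TMRM-high and to 166 to 196 CPM in TMRM-low libraries. Cd3d and Lck made up most of both sums. Cd3d, the 1 called, averaged 46.6 CPM in TMRM-high libraries, against 126 CPM in TMRM-low libraries. In the same order, Lck (26.2 against 44.0 CPM) and Cd3g (0.72 against 7.28 CPM) were lower on average but did not pass. Below the filter on low counts, Trac was lower (0.22 against 0.95 CPM) and Cd3e higher (0.448 against 0.0817 CPM). Plasmacytoid dendritic cell markers, from a cell type with high Irf7, summed to 38.9 to 40.4 CPM in TMRM-high and to 11.5 to 31.9 CPM in TMRM-low libraries (1 of 5 tested higher). The TMRM-high sum rests mostly on Ly6d, on average at 24.9 CPM in TMRM-high libraries, against 1.12 CPM in TMRM-low libraries. The other 4 tested, Siglech, Ccr9, Pacsin1 and Cox6a2, had log2 fold changes of -0.79 to -0.04 (standard errors 0.386 to 1.67) and did not pass. In TMRM-low libraries, Siglech was at 0.752, 2.00 and 14.6 CPM and Pacsin1 at 0, 0 and 5.55 CPM, so the third library held most of both. In TMRM-high libraries they were at 5.14 to 6.31 CPM and 0.907 to 1.18 CPM. Among defining markers, Klra8 and Prf1 were each at 0 in 1 TMRM-high library and Vpreb1 in 1 TMRM-low library. In pooled cells, a smaller number of cells of a type and less RNA per cell cannot be told apart, and the part these markers play in the results was not tested.

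Of the 9 genes, all of which passed the filter on low counts, 4 were lower in TMRM-high libraries (Irf7, Irf9, Irf2 and Ifnar2), 1 was higher (Ifngr1) and 4 did not pass (Irf1, Stat2, Ifnar1 and Ifngr2). Over all 13662 genes tested, 5.12% were called lower and 5.84% higher, and of those with a mean level at least that of the lowest of the 9 genes, 7.27% were lower and 7.46% higher. A gene is called at an adjusted p below 0.05, from edgeR's quasi-likelihood test with Benjamini-Hochberg adjustment over all genes tested. Each log2 fold change is TMRM-high over TMRM-low and has its standard error (SE) beside it. The median log2 fold change was -0.54 over the 9 genes and -0.03 over all genes tested. Since the 9 genes were chosen with earlier results of these data known, setting them beside all genes is a description and no independent test. The groups did not overlap for 6 of the 9 genes, 5 lower and 1 higher; of all genes tested this held for 17.0% lower and 18.4% higher. With the TMRM-high libraries summed into 1, which takes the spread from the TMRM-low libraries alone, 1 of the 9 genes was called, Irf7.

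**Figure D1:**
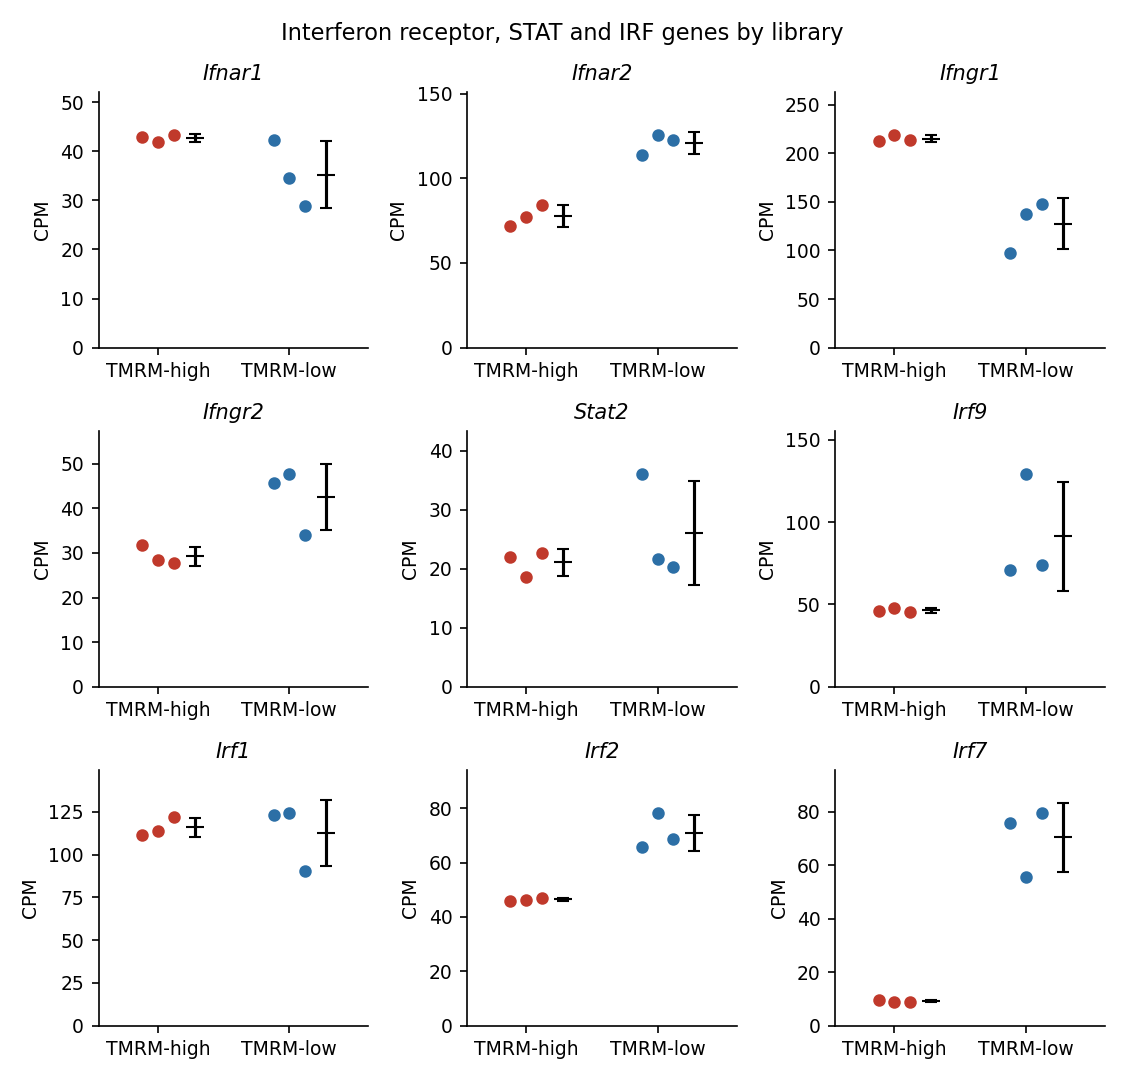
Level of each of the 9 genes in CPM (y axis, from 0) in every TMRM-high (red, left) and TMRM-low (blue, right) library; the black bar gives the mean and SD of 3 libraries. Irf7 lies at 8.96 to 9.57 CPM in TMRM-high libraries and at 55.5 to 79.6 CPM in TMRM-low libraries, while Ifngr1 is the gene whose TMRM-high libraries all lie above the TMRM-low ones.

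Receptors come first in the pathway, and of their 4 chains 1 was higher, 1 was lower and 2 did not pass. Ifnar1, the chain of the type I receptor that binds the kinase TYK2 (chromosome 16, 91485238 to 91507441 on GRCm38, plus strand), had 42.8, 41.9 and 43.4 CPM in TMRM-high libraries. It had 42.4, 34.6 and 28.8 CPM in TMRM-low libraries. The groups overlapped, since the first TMRM-low library reached the TMRM-high level. The log2 fold change was 0.28 (SE 0.179, 95% interval -0.14 to 0.69, edgeR adjusted p = 0.39), an interval that runs from a small fall to a rise.

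Ifnar2, the other chain of the type I receptor (chromosome 16, 91372783 to 91405589, plus strand), had 71.6, 77.4 and 84.5 CPM in TMRM-high libraries. It had 114, 126 and 123 CPM in TMRM-low libraries. Every TMRM-high library was below every TMRM-low library, and the spread was similar in the groups (SD 6.47 CPM among TMRM-high and 6.30 CPM among TMRM-low libraries). Gm21970, which shares 315 exon bases with it, had 2.88 counts over the 6 libraries. Ifnar2 fell, with a log2 fold change of -0.63 (SE 0.102, edgeR adjusted p = 0.0080). Without TMRM-high replicate 1 or 2 it did not pass (edgeR adjusted p = 0.058 and 0.057), nor with the TMRM-high libraries summed (adjusted p = 0.48), at log2 fold changes of -0.58, -0.63 and -0.65.

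Ifngr1, the ligand-binding chain of the interferon gamma receptor (chromosome 10, 19591949 to 19610229, plus strand), had 212, 219 and 214 CPM in TMRM-high libraries. It had 97.8, 138 and 148 CPM in TMRM-low libraries. The TMRM-high libraries were all above the TMRM-low ones, whose first library was the lowest. Ifngr1 rose, with a log2 fold change of 0.75 (SE 0.146, edgeR adjusted p = 0.018), the only call of the 9 genes in that direction. It did not pass without TMRM-high replicate 1, 2 or 3 (adjusted p = 0.077, 0.085 and 0.084) or with the TMRM-high libraries summed (adjusted p = 0.44).

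Ifngr2, the signalling chain that joins IFNGR1 (chromosome 16, 91547072 to 91565623, plus strand), had 31.8, 28.3 and 27.8 CPM in TMRM-high libraries. It had 45.7, 47.8 and 34.1 CPM in TMRM-low libraries. The groups did not overlap, yet the gene missed the threshold, with a log2 fold change of -0.54 (SE 0.183, 95% interval -0.96 to -0.11, edgeR adjusted p = 0.11). It passed without TMRM-low replicate 3, the lowest of its group (-0.67, adjusted p = 0.022), and with DESeq2 (adjusted p = 0.037).

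**Figure D2:**
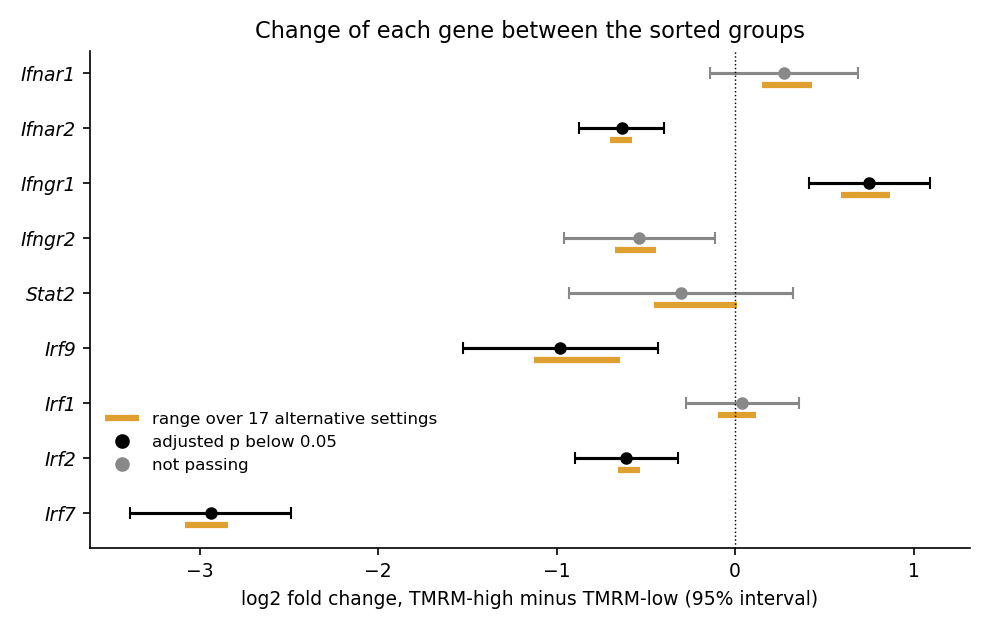
Fold change of each gene on the log2 scale (x axis, TMRM-high minus TMRM-low), with its 95% interval (black where called, grey where not) and, below it, the range of the estimate over 17 alternative settings (orange). Irf7 stands at -2.94; Irf9, Ifnar2 and Irf2 lie between -0.98 and -0.61, and Ifngr1 is at 0.75.

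The ratio of the chains of a receptor within a library does not depend on how libraries are scaled. The Ifnar1/Ifnar2 ratio of counts was 0.598, 0.541 and 0.514 in TMRM-high libraries, against 0.372, 0.275 and 0.235 in TMRM-low libraries. The Ifngr1/Ifngr2 ratio was 6.68, 7.74 and 7.67 in TMRM-high libraries, against 2.14, 2.88 and 4.32 in TMRM-low libraries. Both ratios were higher in all TMRM-high libraries, by 0.93 and 1.30 on the log2 scale. For each the exact two-sided permutation test gave p = 0.10, the smallest that 3 libraries against 3 allow. Adjusted over the 4 ratios examined, p was 0.13. The ratios are of counts, not of molecules or protein, and restate the same libraries as the single genes.

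Stat2 encodes a subunit of ISGF3 (chromosome 10, 128270559 to 128292849, plus strand). It had 22.05, 18.5 and 22.7 CPM in TMRM-high libraries and 36.1, 21.6 and 20.4 CPM in TMRM-low libraries. The first TMRM-low library was high and the other TMRM-low libraries lay within the range of the TMRM-high ones. The log2 fold change was -0.30 (SE 0.270, 95% interval -0.93 to 0.32, edgeR adjusted p = 0.55), and 0.010 without that first TMRM-low library.

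Irf9, the DNA-binding subunit of ISGF3 (chromosome 14, 55603571 to 55610030, plus strand), had 45.9, 47.9 and 45.1 CPM in TMRM-high libraries. It had 71.1, 129 and 73.6 CPM in TMRM-low libraries. All TMRM-low libraries were higher, the second by far. Irf9 fell, with a log2 fold change of -0.98 (SE 0.235, edgeR adjusted p = 0.038), and by 0.64 on that scale without TMRM-low replicate 2, where it still passed. It did not pass without TMRM-high replicate 1, 2 or 3 (adjusted p = 0.15, 0.14 and 0.16) or with those libraries summed (adjusted p = 0.69). Irf9 shares 123 exon bases with Rnf31 on the same strand, so some counts could be split between them; Rnf31 was at 23.1 ± 3.81 CPM in TMRM-high libraries, against 22.4 ± 1.93 CPM in TMRM-low libraries (SD, n = 3 each). The Irf9/Stat2 ratio was 2.08, 2.58 and 1.99 in TMRM-high libraries and 1.97, 5.99 and 3.62 in TMRM-low libraries, which overlap (difference -0.67 on the log2 scale, exact permutation p = 0.40, adjusted over the 4 ratios 0.40). The difference was -1.08 without TMRM-low replicate 1, the TMRM-low library with the lowest ratio, where the groups no longer overlapped. The exact permutation p was 0.10 there, the smallest possible with those libraries, so it adds nothing to the lack of overlap. Without TMRM-low replicate 2 the difference was -0.28.

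Irf1, a transcription factor gene that interferon gamma induces (chromosome 11, 53770014 to 53778374, plus strand), had 111, 114 and 122 CPM in TMRM-high libraries. It had 123, 125 and 90.3 CPM in TMRM-low libraries. The groups overlapped, with the third TMRM-low library lowest. The log2 fold change was 0.04 (SE 0.136, 95% interval -0.28 to 0.36, edgeR adjusted p = 0.89) and turned to -0.10 without that library. Irf1 shares 135 exon bases with the opposite-strand gene Gm17334, which had 3.18 ± 0.405 CPM in TMRM-high libraries, against 3.00 ± 0.488 CPM in TMRM-low libraries.

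Irf2, the competitor of IRF1 whose loss in mice leaves HSCs exposed to type I interferon signalling (chromosome 8, 46739732 to 46847458, plus strand), had 46.0, 46.3 and 47.1 CPM in TMRM-high libraries. It had 65.7, 78.4 and 68.5 CPM in TMRM-low libraries. Every TMRM-high library was lower, and the gene fell with a log2 fold change of -0.61 (SE 0.125, edgeR adjusted p = 0.022). It did not pass without TMRM-high replicate 1, 2 or 3 (adjusted p = 0.12, 0.13 and 0.12) or with those libraries summed (adjusted p = 0.89). The Irf1/Irf2 ratio was 2.42, 2.46 and 2.59 in TMRM-high libraries, against 1.87, 1.59 and 1.32 in TMRM-low libraries. It was higher in all TMRM-high libraries by 0.66 on the log2 scale (exact permutation p = 0.10, the smallest possible, adjusted 0.13).

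**Figure D3:**
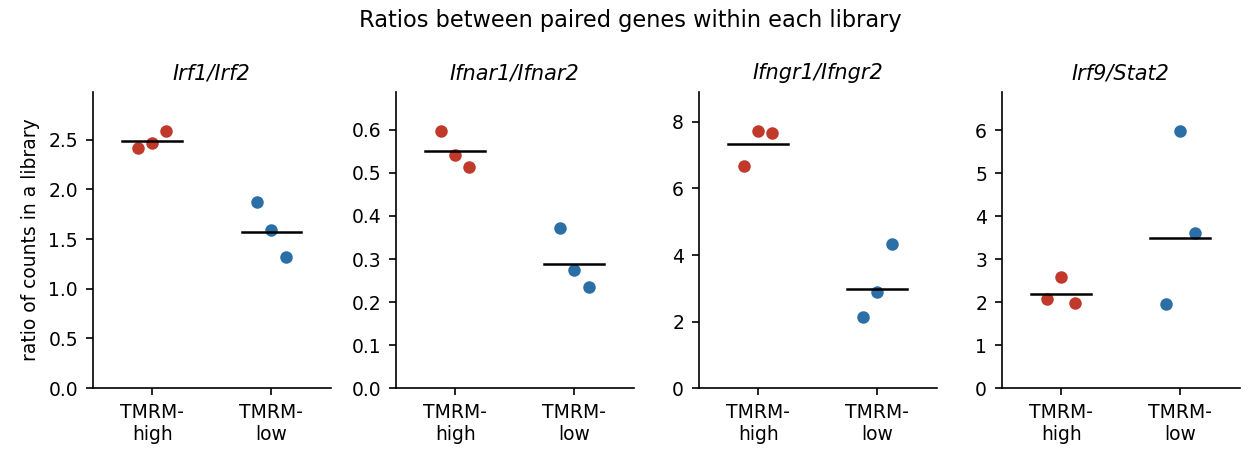
Ratio of counts between 2 genes of the same receptor, complex or site (y axis, from 0) in each TMRM-high (red, left) and TMRM-low (blue, right) library, with the geometric mean as a bar. The groups are apart for Irf1/Irf2, Ifnar1/Ifnar2 and Ifngr1/Ifngr2 and overlap for Irf9/Stat2.

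Irf7, the amplifier of type I interferon production, had the largest change of the 9 genes (chromosome 7, 141262706 to 141266481, minus strand). It had 211, 175 and 129 counts in TMRM-high libraries, or 9.57, 8.98 and 8.96 CPM. It had 1312, 890 and 1463 counts in TMRM-low libraries, or 75.9, 55.5 and 79.6 CPM. No library of either group came near the other group. Irf7 fell, with a log2 fold change of -2.94 (SE 0.194, 95% interval -3.39 to -2.49, edgeR adjusted p = 0.00012), a level 7.67-fold lower in TMRM-high libraries, and its p ranked 54th of 13662. It stayed called in all 17 alternative settings, with log2 fold changes of -3.08 to -2.84 and adjusted p-values of up to 0.023. Irf7 shares 45 exon bases with Phrf1 on the opposite strand, whose reads cannot be told apart there without strand; Phrf1 was at 67.7 ± 2.79 CPM in TMRM-high libraries, against 68.2 ± 9.36 CPM in TMRM-low libraries.

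Within groups the genes varied more among TMRM-low libraries. The SD in CPM was larger in the TMRM-low group for 8 of the 9 genes, as it was for 88.7% of all genes tested. The coefficient of variation of Irf2 was 1.25% in TMRM-high libraries, against 9.38% in TMRM-low libraries. That of Irf9 was 3.05% in TMRM-high libraries, against 36.1% in TMRM-low libraries. The TMRM-low libraries did not share an order over the genes: the second was highest for Irf9 and lowest for Irf7, and the first was highest for Stat2 and lowest for Ifngr1. The model used a single estimate of the spread for both groups.

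Levels between genes are compared per kilobase (kb) of merged exon length. Ifngr1 was highest in both groups, at 75.5 ± 1.30 CPM per kb in TMRM-high libraries, against 44.8 ± 9.23 CPM per kb in TMRM-low libraries (SD, n = 3 each). In TMRM-high libraries it was followed by Irf1 (29.1 ± 1.42), Ifnar2 (23.4 ± 1.94), Irf9 (8.59 ± 0.262), Ifngr2 (7.78 ± 0.567), Ifnar1 (7.19 ± 0.131), Irf2 (6.29 ± 0.0788), Stat2 (3.56 ± 0.380) and Irf7 (2.43 ± 0.0925 CPM per kb). Of the neighbours in that order, only Irf9 and Ifngr2 overlapped. In TMRM-low libraries the order after Ifngr1 was Ifnar2 (36.3 ± 1.89), Irf1 (28.3 ± 4.87), Irf7 (18.6 ± 3.43), Irf9 (17.0 ± 6.12), Ifngr2 (11.3 ± 1.95), Irf2 (9.58 ± 0.899), Ifnar1 (5.94 ± 1.14) and Stat2 (4.39 ± 1.48 CPM per kb). There, Ifngr1 and Ifnar2, Irf7 and Irf9, Ifngr2 and Irf2, and Ifnar1 and Stat2 overlapped. Irf7 thus took place 9 of 9 in TMRM-high libraries, against place 4 in TMRM-low libraries.

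**Figure D4:**
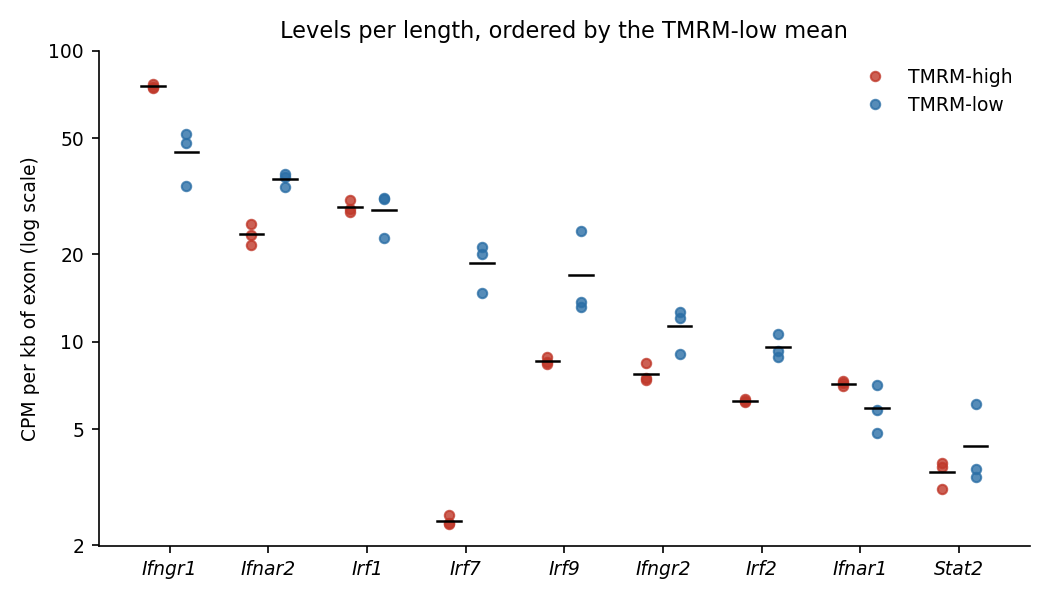
Level per kb of merged exon in CPM (y axis, log scale) for each gene, ordered by its TMRM-low mean, in TMRM-high (red, left) and TMRM-low (blue, right) libraries; bars are means of 3. Irf7 is the gene whose place in the order differs most, 2.43 CPM per kb in TMRM-high libraries, against 18.6 in TMRM-low libraries.

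Genes with the most similar profile were sought for the 5 called genes, by the root mean square (RMS) difference of centred log2 CPM over the 6 libraries among 9969 genes. They describe likeness over these libraries, which fall into 2 groups, and nothing about control. Irf7 was most like Rtp4, a type I interferon target (RMS 0.20, 16.2 CPM in TMRM-high libraries, against 96.9 CPM in TMRM-low), then Procr (0.21), which encodes a surface receptor used to isolate HSCs, and Il2rb (0.23), an interleukin receptor chain. Procr was at 3.57 CPM in TMRM-high libraries, against 33.9 CPM in TMRM-low, and Il2rb at 1.79 against 15.7 CPM. The genes compared had a mean of at least 5 CPM, which Procr and Il2rb reached only through the TMRM-low libraries. Irf9 was most like Mfsd11 (0.089), Oas1b (0.094), a gene of the antiviral OAS family, and Uchl1 (0.097). Irf2 was most like Gltp (0.034), Adar (0.039), an RNA editing enzyme gene, and Bcl2 (0.055), a survival gene. Ifnar2 was most like Acap1 (0.063), Sgpl1 (0.068) and Il2rg (0.070), the shared gamma chain of interleukin receptors. Ifngr1 was most like Dctn6 (0.018), Dynlt3 (0.025) and Rabggtb (0.061).

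Of the other factors and the kinases, 15 genes in all were tested, and 2 were called, both lower, where 5.12% of all genes tested were. Of 5 other IRF genes tested, Irf8, a myeloid and dendritic cell regulator, was the 1 called, at 173 ± 9.39 CPM in TMRM-high libraries, against 323 ± 22.3 CPM in TMRM-low libraries (log2 fold change -0.90, SE 0.0793, edgeR adjusted p = 0.00045). The virus-activated Irf3 (-0.23, SE 0.178) and Irf5 (-0.48, SE 0.214) did not pass. Of 6 other STAT genes 1 was called lower and 0 higher. Stat3, at -0.07 (SE 0.128), and Stat5a, at 0.36 (SE 0.185), did not pass. Of the JAK kinase genes 0 of 4 were called by edgeR, with 1 at an unadjusted p under 0.05 (Jak3, -0.51, SE 0.183) and 0 called by DESeq2 or limma. Jak1, a kinase of both receptors, was at 224 ± 7.13 CPM in TMRM-high libraries, against 245 ± 19.9 CPM in TMRM-low libraries. With the TMRM-high libraries summed, Irf8 was not called, and without TMRM-low replicate 3 Irf3 (edgeR adjusted p = 0.042) and Jak3 (0.036) passed.

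The interferon genes themselves had few counts. Of 11 genes of interferons and the type III receptor chains, 2 passed the filter on low counts. Ifnb1, the interferon beta gene, had 79 counts over the TMRM-high libraries and 4 over the TMRM-low libraries. Its level was 0.817, 1.74 and 1.88 CPM in TMRM-high libraries, against 0.0579, 0 and 0.163 CPM in TMRM-low libraries. It passed the filter only through the TMRM-high libraries. It was called higher (log2 fold change 4.16, SE 0.970, edgeR adjusted p = 0.034), but not without TMRM-high replicate 1, 2 or 3 or TMRM-low replicate 1. Nor was it called with limma voom, without a low-count filter or with the TMRM-high libraries summed. With the replicate number as a block in the fit it did not pass either (edgeR adjusted p = 0.071). The estimate rests on 4 TMRM-low counts and was 3.64 without TMRM-low replicate 2 and 5.33 without TMRM-low replicate 3. The interferon gamma gene Ifng, below the filter, had 20 counts over the TMRM-high libraries and 0 over the TMRM-low libraries. Il10rb, a chain of the type III receptor, did not pass (-0.32, SE 0.132, edgeR adjusted p = 0.17; adjusted p = 0.046 without TMRM-low replicate 2).

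Sensors, adaptors and feedback inhibitors follow, read against the 5.12% of all genes tested called lower and 5.84% called higher. Of 15 tested sensor and adaptor genes, 1 was lower and 1 higher. Tmem173, which encodes the DNA-response adaptor STING, was at 45.5 ± 3.75 CPM in TMRM-high libraries, against 93.2 ± 18.8 CPM in TMRM-low libraries (log2 fold change -1.04, SE 0.167, edgeR adjusted p = 0.0086). Ikbke, a kinase that phosphorylates IRF3 and IRF7, was at 42.7 ± 3.65 CPM in TMRM-high libraries, against 24.7 ± 3.47 CPM in TMRM-low libraries (0.79, SE 0.177, edgeR adjusted p = 0.029). The adaptor kinase gene Irak1 (0.13, SE 0.0855) and the adaptor gene Myd88 (-0.54, SE 0.206) did not pass. Of 12 feedback inhibitors 1 was lower and 0 higher, so the calls in these lists lay near the share over all genes. Usp18, which blocks signalling at IFNAR2, was at 8.03, 10.8 and 11.3 CPM in TMRM-high libraries, against 30.2, 18.0 and 66.6 CPM in TMRM-low libraries (-1.93, SE 0.466, edgeR adjusted p = 0.039), and the log2 fold change was -1.26 without TMRM-low replicate 3. The phosphatase genes Ptpn6 (-0.34, SE 0.142) and Ptpn1 (-0.36, SE 0.179) did not pass, although Ptpn6 did without TMRM-low replicate 2 and Myd88 without TMRM-low replicate 3. Tmem173 lost its call without TMRM-high replicate 1 or 2, and Ikbke and Usp18 without any 1 of the TMRM-high libraries; all of them lost it with those libraries summed.

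Downstream, most target genes were lower in TMRM-high libraries, with exceptions. Among all genes tested, 5.12% were called lower and 5.84% higher, with a median log2 fold change of -0.03. Of 23 tested targets mainly of type I interferon, 16 were called lower, 0 higher and 7 did not pass, with a median log2 fold change of -1.53. Their summed level was 490 to 519 CPM in TMRM-high libraries, against 1235 to 1367 CPM in TMRM-low libraries. Ifi27 was at 90.7 ± 2.68 CPM in TMRM-high libraries, against 273 ± 23.8 CPM in TMRM-low libraries (-1.59, SE 0.0875). Rtp4, Irf7's nearest neighbour above, fell (-2.58, SE 0.164), as did Ifi44 (-2.48, SE 0.194) and Oasl2 (-1.94, SE 0.198). Cmpk2 (-1.03, SE 0.436) and Parp14 (-0.44, SE 0.186) did not pass, and Cmpk2 was at -0.32 without TMRM-low replicate 3, its highest library. Of 16 tested targets mainly of interferon gamma, 10 were lower, 1 was higher and 5 did not pass, with a median of -0.67 and summed levels of 1227 to 1243 CPM in TMRM-high libraries, against 1883 to 1925 CPM in TMRM-low libraries. Iigp1 (-3.13, SE 0.249), Ifi47 (-1.01, SE 0.0900) and Igtp (-1.33, SE 0.130), which encode interferon-inducible GTPases, fell. Cxcl10, a chemokine gene, rose to 40.0 ± 1.56 CPM in TMRM-high libraries, against 3.72 ± 0.855 CPM in TMRM-low libraries (3.43, SE 0.250). Nlrc5 (-0.26, SE 0.324) and Cd274 (-0.76, SE 0.213) did not pass. Parp14 and Cd274 passed without TMRM-low replicate 3, Cd274 also without TMRM-low replicate 1, with DESeq2 and with limma voom, and Nlrc5 without TMRM-low replicate 2. The edgeR adjusted p-values of the 8 called genes named here ran from 5.7e-05 to 0.0010. GTPase and Oas genes belong to families of close copies, so reads could be split between members. Of these 8, Ifi44, Oasl2, Ifi47, Igtp and Cxcl10 were not called when the TMRM-high libraries were summed. These lists were drawn up with earlier results of these data known, so their direction is not independent support for that of the 9 genes.

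**Figure D5:**
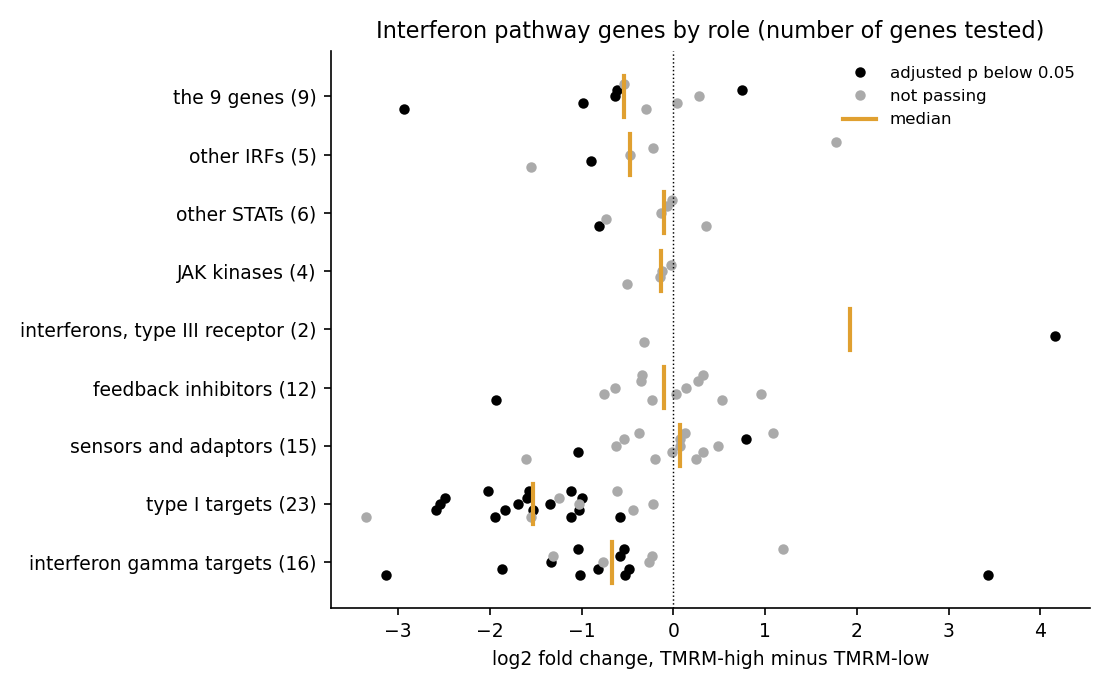
Fold change on the log2 scale (x axis, TMRM-high minus TMRM-low) of each tested gene of the pathway by role (y axis, number tested in brackets; black called, grey not, orange the median). The targets of type I interferon lie to the left of 0, with a median of -1.53, while the medians of the other STAT and the JAK genes are -0.10 and -0.14.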

How the data were processed

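RNA was sequenced from 3 TMRM-high and 3 TMRM-low libraries as paired reads of 150 bases after 13 PCR cycles of cDNA, per the labels' protocols. The authors deposited estimated counts for each gene, unscaled and partly not whole. Trim Galore 0.5.0, Salmon (listed as 0.03.1) and the GRCm38 build are named, per the submitters' processing notes, and the annotation is not stated there. Tagmented libraries of this kind do not mark strand or molecules, so PCR copies are counted as reads.

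Counts were rounded. Symbols were found for 27797 IDs, and positions and merged exon lengths come from GENCODE M21 (GRCm38). Genes passing edgeR's filterByExpr (13662) were scaled by TMM and fitted with edgeR 4.0.16 (glmQLFit, robust, group as the only term; R 4.3.3), and tested on simulated data first. The SE is the size of the log2 fold change over the root of its F value. CPM use TMM-scaled library totals; centred log2 CPM use a prior count of 2. Alternatives included DESeq2 1.42.0 and limma 3.58.1 (voom). The 9 genes and all lists were chosen with earlier results of these data known. Named list genes are up to 4 called with the smallest p and up to 2 not called with the highest mean CPM; overlapping genes were named by position. The listed genes Gbp5, Gbp6 and Mb21d1 were not analysed here, and values of some list members are not reported here.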

Additional observations from a re-analysis of the deposited data

How the results depend on the processing

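Of the 9 genes, Irf7 kept its call and direction in all 17 alternatives; Irf1 (-0.095 without TMRM-low replicate 3, range with each library left out up to 0.12) and Stat2 (0.010 without TMRM-low replicate 1, range from -0.45), neither called, turned sign, as did Stat3 (0.047, range from -0.20) and Nlrc5 (0.014, range from -0.58) without TMRM-low replicate 1. The cause was not tested. Over all genes the calls were 798 higher and 700 lower; they were 1324 and 1337 with DESeq2, 434 and 300 with a minimum of 2-fold, and 86 and 42 with the TMRM-high libraries summed, and 1138 lower at an adjusted p below 0.10. Of the 9 genes, 0 were higher and 1 lower with a minimum of 2-fold and with the TMRM-high libraries summed, which leaves a single library in that group. Summed, calls were 0 of other IRFs, other STATs, interferons, sensors and feedback inhibitors, 2 of type I targets and 1 of interferon gamma targets. With a minimum of 2-fold, 0 of other IRFs and other STATs, 1 sensor and 6 interferon gamma targets were called. DESeq2 called 2 other STATs and 2 feedback inhibitors, limma voom 2 other STATs, 0 interferons and 1 sensor, and a threshold of 0.10 called 2 feedback inhibitors. No filter or a mean count of at least 50 called 0 interferons, and with that minimum Ifnb1 was not tested.

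With each library left out in turn, 270 to 1343 genes were higher and 194 to 1160 lower, and of the 9 genes 0 to 1 were higher and 1 to 5 lower. In the lists 0 to 1 JAK kinase, 0 to 3 feedback inhibitors, 0 to 2 interferons, 1 to 2 other IRFs, 1 to 2 other STATs, 0 to 5 sensors and 8 to 18 type I targets were called. The lowest counts of genes came without a TMRM-high library and the highest without TMRM-low replicate 3. In the fit with the replicate block, 582 genes were higher and 449 lower, Irf2 was not called (-0.60, edgeR adjusted p = 0.065), and 0 interferons and 1 sensor were called. Deviations from the group means of same-numbered libraries correlated at -0.014, 0.017 and 0.021, and not every library correlated best with its own number, so the numbers were not taken to pair the libraries. TMM, RLE, upper-quartile and total-count scaling called the same number of the 9 genes in each direction. Depth was lowest for Irf7 in TMRM-high libraries, at 129 to 211 counts, and each other gene of the 9 had at least 327 counts in a library.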
